A study of Trichoplusia ni and Spodoptera exigua with 20 samples.

Results

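The genes examined here are the 100 *S*. *exigua* genes with the most abundant reads in the fat body of control larvae. They were taken from the 12380 genes of the deposited normalized table as those with the highest mean over the 3 control libraries, with ties ordered by identifier. The level in the controls therefore chose them, and that level is given below as a description. Each of the 9 libraries came from 1 pool of fat bodies, taken from 3 to 5 wild-type larvae at about Day 10 on artificial diet. The 3 control pools had diet treated with ethanol alone, which was evaporated before feeding. The 3 SFN pools had diet with sulforaphane (labelled 70 mM) and the 3 TSA pools diet with trichostatin A (labelled 330 µM), each applied in the same ethanol carrier. The tables name genes by locus identifiers, and 0 of the 100 members could be matched to a gene name, a position or a sequence. No role is therefore assigned to any member, and the fat body label could not be checked against tissue markers. Values are not divided by gene length, so a rank orders genes by reads and not by transcripts.

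The fat body is the insect counterpart of liver and adipose tissue. It stores lipid and glycogen, and in late larvae it makes and secretes most proteins of the hemolymph, among them storage proteins that can dominate its messenger RNA shortly before pupation. SFN, a product of cruciferous plants, and TSA, a microbial compound used as a pharmaceutical, inhibit histone deacetylases, enzymes that remove acetyl groups from histone tails. Acetylated histones are generally associated with active genes.

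Counts on genes summed to 6352561 in SFN replicate 2, the shallowest library, and to between 24984839 and 35157218 in the others. A normalized value is the read count scaled to the library total (CPM) and divided by a TMM factor, which corrects for the makeup of the library. These factors were 0.689 to 0.840 in the controls, 1.09 to 1.39 under SFN and 0.840 to 1.20 under TSA. Shares of counts, which use no such factor, are given first for this reason. A pair of libraries stood apart among the members. SFN replicate 2 held the lowest of the 9 values in 47 of the 100 members, and control replicate 1 lay 10-fold or more below another control in 11 members and 10-fold or more above another in 5. The member at rank 100, HF086_006346, averaged 1740.0 in the controls (SD 362, n = 3), and the first gene outside, HF086_016165, averaged 1735 (SD 342, n = 3).

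The 100 members held close to 50% of the counts or more in each control and a smaller part in each treated library. Their share was 47.7%, 58.3% and 52.1% in control replicates 1, 2 and 3. It was 31.2%, 23.7% and 37.1% in SFN replicates 1 to 3 and 35.2%, 40.8% and 29.6% in TSA replicates 1 to 3. All 6 treated libraries lay below all 3 controls, and the SFN and TSA ranges overlapped. The mean share was 52.7% ± 5.29 (SD, n = 3) in controls, 30.7% ± 6.71 (SD, n = 3) under SFN and 35.2% ± 5.59 (SD, n = 3) under TSA. Counting error was far smaller than these differences, since the widest exact 95% binomial interval, that of SFN replicate 2, ran from 23.67% to 23.74%. Such intervals cover counting error only. Without SFN replicate 2 the SFN mean was 34.1%.

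The difference in share of counts lay mostly with the members of ranks 1 to 10, bands being cut on the control means that chose the members. The members of ranks 1 to 10 held 30.1% ± 8.39 of counts (SD, n = 3) in controls, 8.97% ± 5.36 under SFN and 11.6% ± 4.31 under TSA (SD, n = 3 each). The members of ranks 11 to 50 held 14.4% ± 2.35, 12.3% ± 2.33 and 13.9% ± 1.37 (SD, n = 3 each). Those of ranks 51 to 100 held 8.15% ± 1.05, 9.39% ± 0.975 and 9.69% ± 0.139 (SD, n = 3 each). For the first 10, all treated libraries (3.66% to 15.8%) lay below all controls (21.2% to 37.9%). For ranks 11 to 50 the groups overlapped, and for ranks 51 to 100 the TSA libraries lay above the controls while the SFN libraries overlapped with them. The shares of a library sum to a fixed whole, so a smaller share at the top leaves a larger one elsewhere. On the scale of fitted log2 fold changes the lower ranks were also below control, with medians for SFN of -5.07, -0.98 and -0.83 in the 3 bands and for TSA of -4.48, -0.53 and -0.34. The next 100 genes of the control order took 10.5% ± 1.62 of counts in controls, 13.8% ± 2.08 under SFN and 14.1% ± 0.398 under TSA (SD, n = 3 each).

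**Figure D1:**
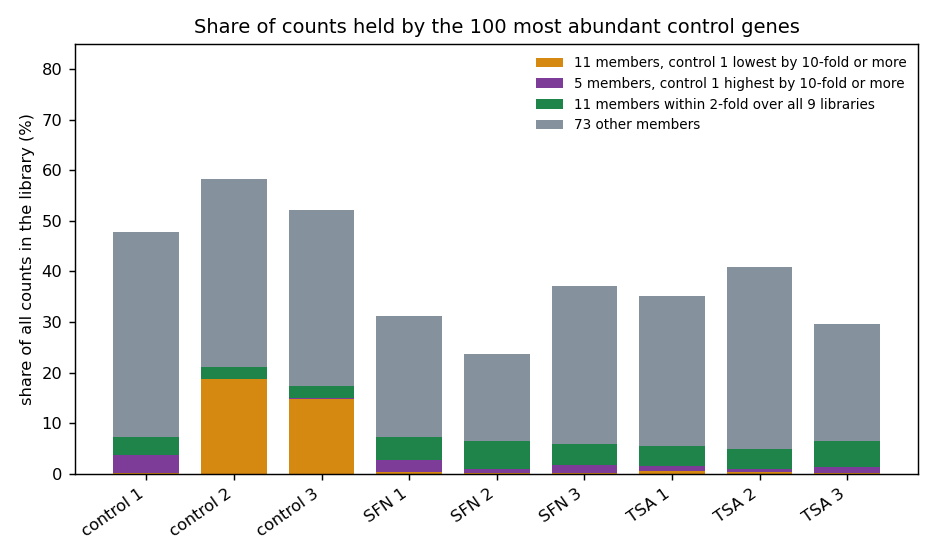
Share of all counts (y axis, %, from 0) held by the 100 members in each of the 9 libraries (x axis), with the members stacked by how their control values spread. The controls reach 47.7% to 58.3% and the treated libraries 23.7% to 40.8%. The orange block of 11 members is 14.8% and 18.8% of counts in control 3 and control 2 and under 0.6% in the other 7 libraries.

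Genes chosen for high control values will tend to be lower in any other library, so the share was also measured in controls that took no part in the choice. When the 100 genes were chosen from control replicates 2 and 3 alone, they held 41.8% of counts in control replicate 1 and 20.0% to 37.9% in the 6 treated libraries. When chosen without control replicate 2, they held 56.5% in that control and 24.1% to 41.1% in the treated libraries. When chosen without control replicate 3, they held 51.2% in that control and 24.5% to 41.2% in the treated libraries. In each case the held-out control lay above all 6 treated libraries, by the smallest margin for control replicate 1. These choices shared 83, 90 and 94 genes with the 100 members.

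A measure free of the member list gave the same order. Each library's own 100 most abundant genes held 55.0% ± 4.20 of its counts (SD, n = 3) in controls, 41.2% ± 3.42 (SD, n = 3) under SFN and 43.2% ± 3.30 (SD, n = 3) under TSA. The controls (51.5% to 59.6%) did not overlap with the treated libraries (37.6% to 46.9%). For SFN and for TSA against control the two-sided exact permutation test gave p = 0.10 (adjusted p = 0.15 over 3 comparisons), the smallest p that 3 against 3 libraries allow. Between SFN and TSA the difference was -2.02 percentage points, smaller than the spread between libraries (exact permutation test, p = 0.50). The smallest number of genes that together held 50% of counts was 39 to 91 genes in the controls, 139 to 198 under SFN and 119 to 161 under TSA.

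Of the 100 members, 53 were also among the 100 most abundant genes by the SFN mean and 56 by the TSA mean. The lists of SFN and TSA, neither chosen by the other, shared 85 of their 100 genes. In single libraries the members filled 75, 85 and 84 places of the first 100 in the controls, 61, 33 and 57 under SFN and 58, 65 and 51 under TSA. SFN replicate 2 was lowest with 33, and without it the SFN mean gave 60. Under SFN, 31 members ranked beyond 100 but within 500, 6 beyond 500 but within 1000 and 10 beyond 1000 of 12380 genes. Under TSA the same bands held 30, 3 and 11 members.

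**Figure D2:**
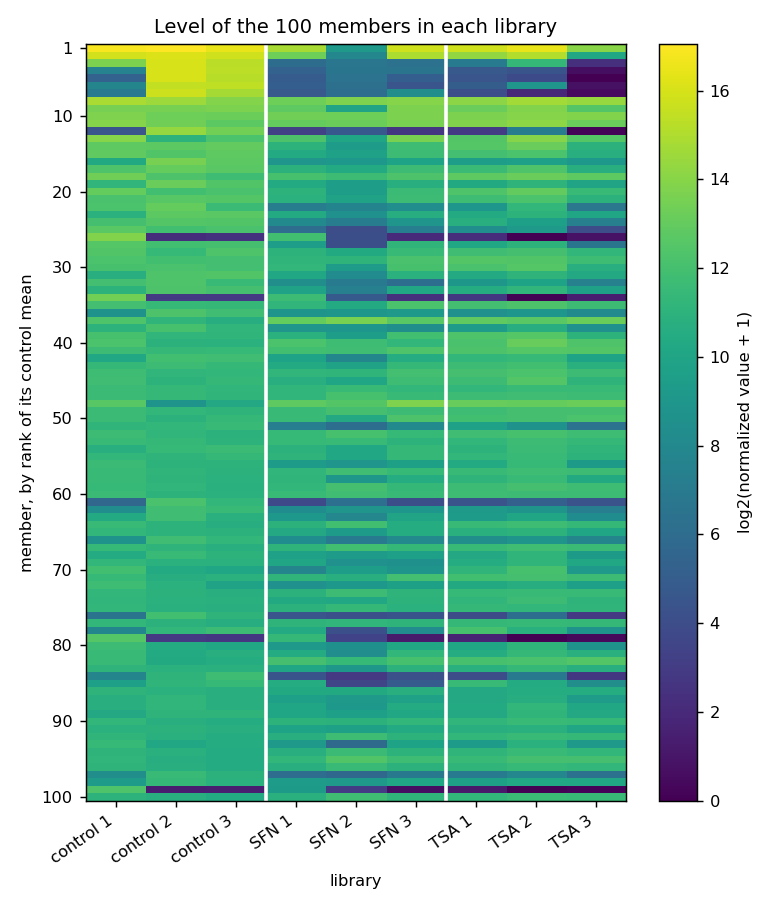
Level of each member (rows, by rank of its control mean) in each library (columns), as log2 of the normalized value plus 1. The rows at ranks 4 to 7 and 12 are low in control 1 and in the treated libraries, and the 4 rows at ranks 26, 34, 79 and 99 are high in control 1 and SFN 1 and low elsewhere.

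The most abundant member, HF086_012941, took 7.55% to 10.2% of all counts in the controls. Its normalized value was 121827, 135704 and 91166 in control replicates 1 to 3, 28316, 593 and 57094 in SFN replicates 1 to 3 and 56752, 93297 and 16275 in TSA replicates 1 to 3. SFN replicate 2 stood apart by a wide margin, and TSA replicate 2 overlapped with the lowest control. It was the top gene of 7 of the 9 libraries, the exceptions being SFN replicate 2 and TSA replicate 3, where HF086_003196 led. The next member by number and by rank, HF086_012940, had 61109, 72348 and 58738 in the controls, 9991, 240.4 and 31973 under SFN and 20349, 34369 and 1213 under TSA. All of its treated libraries lay below all of its controls, with the same 2 libraries lowest.

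Both genes belong to a group of 5 members with neighbouring identifier numbers, HF086_012937 to HF086_012944. Neighbouring numbers were found for 22 of the 100 members (within 5 of another member), against 14 of the next 100 genes. The numbers are not positions, and whether such neighbours resemble each other in sequence, so that reads could be divided between them, was not examined. Together the 5 held 16.5%, 23.5% and 19.1% of counts in control replicates 1 to 3. They held 5.36%, 0.144% and 9.77% in SFN replicates 1 to 3 and 8.28%, 11.1% and 2.15% in TSA replicates 1 to 3. In every treated library the share was below that of every control.

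Within this group the members differed. HF086_012939 had 13268, 65313 and 40154 in the controls, 63.4, 104 and 79.8 under SFN and 129, 2604 and 3.85 under TSA, so that it was lower in all treated libraries than in any control and less abundant there than HF086_012941 and HF086_012940. HF086_012944 had 39.7, 64956 and 37543 in the controls, 30.8, 87.3 and 34.0 under SFN and 21.8, 13.0 and 0 under TSA, which put control replicate 1 beside the treated libraries. TSA replicate 3 held 0 of its counts. HF086_012937 was also lowest in control replicate 1, with 231, 2453 and 3266, but had 4404, 1792 and 406 under TSA, a range that contained the other controls. Under SFN it had 1357, 16.8 and 299.5.

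**Figure D3:**
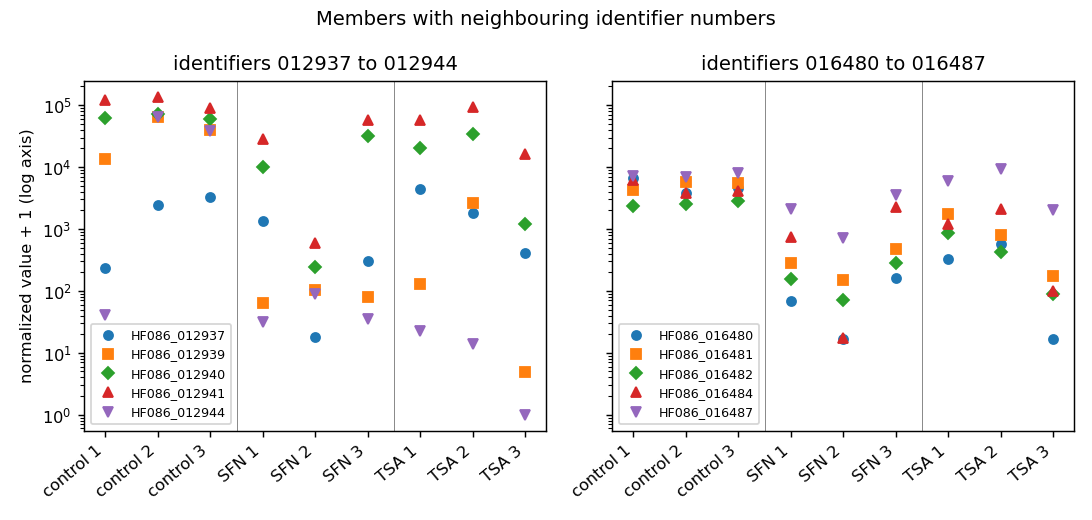
Normalized value plus 1 (log axis) in each library for the 5 members from HF086_012937 to HF086_012944 (left) and the 5 from HF086_016480 to HF086_016487 (right), 1 symbol per gene and grey lines between treatments. On the left, HF086_012941 and HF086_012940 are the highest of the 5 in every library, and their own lowest values are in SFN 2 and TSA 3. HF086_012944 is low in every library but control 2 and control 3, while on the right the 3 controls of each gene lie close together.

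In 11 members the control replicates themselves differed by 10-fold or more with control replicate 1 lowest, a group set apart after the values were seen. Of the next 100 genes of the control order, 9 had this pattern, and 3.17% of the 5496 genes in the normalized table with a mean CPM over 10. These 11 genes held 0.164%, 18.8% and 14.8% of counts in control replicates 1 to 3, 0.312%, 0.202% and 0.209% in the SFN libraries and 0.559%, 0.303% and 0.104% in the TSA libraries. In control replicates 2 and 3 their values ran from 2136 to 66018, and in 10 of the 11 both lay above all 6 treated libraries. Control replicate 1 lay within the range of the treated libraries in 8 and above all of them in 3. The choice of these 11 by their control values favours such counts. The same counts are not given for other genes with this pattern, so nothing is read from them. That library had received the carrier alone.

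Among them, HF086_012964 had 191, 66018 and 41350.3 in control replicates 1 to 3, 39.7, 99.5 and 95.4 under SFN and 25.6, 20.3 and 0.583 under TSA. Its neighbour by number, HF086_012963, had 218, 45050.5 and 42892 in the controls, 33.5, 77.3 and 21.2 under SFN and 31.6, 473 and 0.729 under TSA. The pair was thus more than 100-fold lower in control replicate 1 than in the other controls, and control replicate 1 was above all treated libraries for the first and within their range for the second. HF086_002678 had 122, 54580.1 and 28104 in the controls, 26.6, 71.2 and 339 under SFN and 15.7, 2.96 and 0.408 under TSA. HF086_010877 had 21.3, 20636 and 10827 in the controls, 9.36, 24.8 and 5.76 under SFN and 7.27, 141 and 0.117 under TSA. Both were at or near their lowest in TSA replicate 3, and control replicate 1 lay among the treated libraries for each. Its neighbour HF086_010878 was less extreme, with 2055, 4925 and 4067 in the controls, 901, 175 and 1157 under SFN and 1488, 2343 and 858 under TSA.

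A mean over such controls describes no single library. Without these 11 genes and the 5 with control replicate 1 highest, the other 84 members held 44.0%, 39.5% and 37.2% of counts in control replicates 1 to 3, 28.5%, 22.7% and 35.4% in SFN replicates 1 to 3 and 33.8%, 39.8% and 28.4% in TSA replicates 1 to 3. The mean share of the 84 was 40.2% ± 3.43 (SD, n = 3) in controls, 28.9% ± 6.34 (SD, n = 3) under SFN and 34.0% ± 5.72 (SD, n = 3) under TSA. SFN still did not overlap with the controls, but TSA replicate 2 now lay above control replicates 2 and 3.

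A set of 4 members was abundant in control replicate 1 and SFN replicate 1 only. HF086_008083 had 14486, 3.68 and 4.64 in the controls, 3831, 16.2 and 3.30 under SFN and 3.44, 0 and 0.816 under TSA. HF086_008077 had 10924, 6.61 and 6.02 in the controls, 3366, 27.6 and 4.23 under SFN and 5.65, 0.0910 and 1.72 under TSA. The consecutive identifiers HF086_000983 and HF086_000984 showed the same picture, with 5938 and 5242 in control replicate 1 and 2581 and 626 in SFN replicate 1. In the other 7 libraries each of the 4 genes had at most 243 raw counts. Together they took 3.07% of counts in control replicate 1, 1.40% in SFN replicate 1 and under 0.01% in every other library. A single pool therefore placed these 4 genes among the members. In pooled tissue, more cells of a type that expresses a gene and more RNA of it per cell cannot be told apart.

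The remaining member with control replicate 1 highest, HF086_016531, had 6309, 445 and 1247 in the controls, 7385, 5655 and 13807 under SFN and 8687, 8323 and 9552 under TSA. Here control replicate 1 lay with the treated libraries again, this time at the high end, and SFN replicate 2 was below it.

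**Figure D4:**
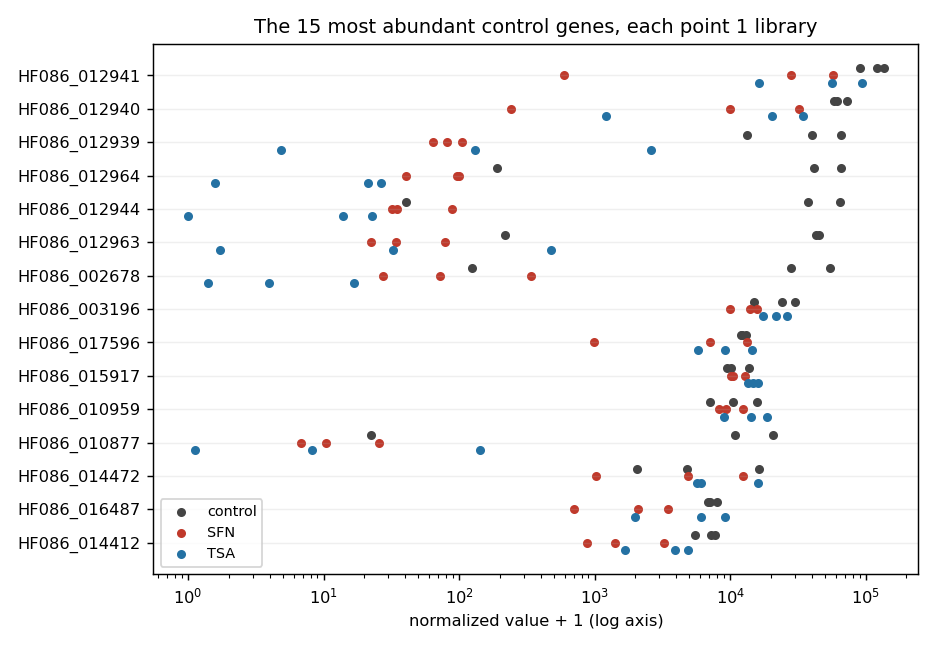
Normalized value plus 1 (x axis, log) of the 15 most abundant members, 1 point per library, with control in grey, SFN in red and TSA in blue. Of the first 7 genes, 4 have 1 grey point far to the left of the others, and HF086_003196, HF086_015917 and HF086_010959 have all 9 points within about 3-fold.

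Others of the 10 most abundant members varied less. HF086_003196, at rank 8, had 30259, 24193 and 14862 in the controls, 9936, 14023 and 15807 under SFN and 17338, 26296 and 21666 under TSA. Its SFN libraries lay below its TSA libraries and overlapped with the controls. HF086_015917, at rank 10, had 13699.5, 10208 and 9462 in the controls, 10411, 10117 and 12905 under SFN and 13466, 15990.2 and 14639 under TSA, a range of 1.69-fold over all 9 libraries. HF086_017596, at rank 9, was 12172, 11974 and 12993 in the controls and 7103, 981 and 13292 under SFN, where SFN replicate 2 alone was far below. Under TSA it had 9196, 14601 and 5787, on both sides of the controls.

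A further group of neighbouring numbers, HF086_016480 to HF086_016487, also held 5 members, and here the controls agreed closely. HF086_016480 had 6667, 3739.9 and 4614 in the controls, 67.3, 15.6 and 158 under SFN and 328, 568 and 15.5 under TSA. HF086_016481 had 4197, 5801 and 5512 in the controls, 278, 151 and 482 under SFN and 1719.6, 802 and 173 under TSA. For these genes and for HF086_016482 and HF086_016484 all 6 treated libraries lay below all 3 controls. HF086_016487, at rank 14 the most abundant of the 5, had 7133, 6832 and 7949 in the controls, 2090.2, 702 and 3472 under SFN and 6058, 9189 and 1999.5 under TSA, so that TSA overlapped with the controls and SFN did not. The 5 together held 1.56% to 2.22% of counts in the controls, 0.132% to 0.723% under SFN and 0.286% to 1.10% under TSA.

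The other members with all treated libraries below all controls were spread over the list, from rank 15 to rank 97. HF086_014412, at rank 15, had 7672, 5467 and 7196 in the controls, 1403, 873 and 3256 under SFN and 3919.6, 4861 and 1660.1 under TSA. SFN replicate 2 was its lowest library and the SFN and TSA ranges overlapped. HF086_017971, at rank 86, was lower by little, with 2199, 1855 and 1747 in the controls, 1331, 1307 and 1666 under SFN and 1249, 1495 and 1475 under TSA, and counted also among the members that varied by less than 2-fold.

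HF086_014472, at rank 13, shows the spread that replicate pools could have. It had 16224, 2057 and 4777 in the controls, 4921, 1023 and 12435 under SFN and 5696, 15982 and 6047 under TSA, with control replicate 1 and TSA replicate 2 highest and SFN replicate 2 lowest. HF086_010959, at rank 11, had 15807, 10457 and 7035 in the controls, 8268, 9356 and 12345 under SFN and 14322, 18598 and 9071 under TSA, and its groups overlapped throughout. Across the 100 members TSA replicate 2 was the highest TSA library in 78 and TSA replicate 3 the lowest in 68, while SFN replicate 2 was the lowest SFN library in 58 and the highest in 27. Among the 84 members whose controls lay within 10-fold, control replicate 1 was the highest control in 52.

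At the other end, 11 members stayed within 2-fold over all 9 libraries, as did 17 of the next 100 genes and 11.2% of those 5496. HF086_014802 varied least, with 3105, 2678 and 2357 in the controls, 2412, 3012 and 2529 under SFN and 2503, 2906 and 2892 under TSA. As shares of counts, which carry no TMM factor, the same 11 genes took 2.70% ± 0.692 of counts (SD, n = 3) in controls, 4.73% ± 0.726 (SD, n = 3) under SFN and 4.41% ± 0.714 (SD, n = 3) under TSA.

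On the scale of the deposited normalization, all 6 treated libraries lay above all 3 controls for 3 members. HF086_011481 had 5247, 2293 and 1569.8 in the controls, 8222, 12320.4 and 6639 under SFN and 7511, 6619 and 9582 under TSA, a mean 2.79-fold that of the controls. HF086_008264 had 2346, 1573 and 1458 in the controls, 2501, 5399 and 3428 under SFN and 3029, 4101 and 4139 under TSA (2.10-fold). The other was HF086_014711, at 1.70-fold. In 19 members all treated libraries lay below all controls. Over all 12380 genes the same held for 16.5% below and 8.9% above.

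Set against control one inhibitor at a time, all 3 SFN libraries lay below all controls in 38 members and above them in 3, beside 20.7% and 15.1% of all genes. All 3 TSA libraries lay below in 26 and above in 20, beside 23.2% and 15.1%. The comparisons share their controls, and the controls chose the members, so nothing is read from these counts. They also moved with the scaling. With library size only in place of the deposited normalization, the counts were 26 below and 23 above for SFN and 21 below and 32 above for TSA. For SFN the count above was 17 without control replicate 1 and 5 without SFN replicate 1 or SFN replicate 2, and for TSA the count below was 47 without TSA replicate 2. The shares of all genes given above hold for the deposited normalization with all libraries. They were not counted for these other settings, so these counts have no background beside them.

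All 100 members passed the filter on low counts (mean CPM over 10), as did 5497 genes in all. In the fit over these genes, the median log2 fold change of the members was -0.90 for SFN against control and -0.50 for TSA against control, while the median of all tested genes was 0.01 and -0.02. With library size only, the medians of the members were -0.23 and 0.02, so that the sign for TSA changed, while those of all tested genes were 0.73 and 0.52. Under TSA the median of the members was -0.95 without TSA replicate 2 and -0.19 without TSA replicate 3, and -0.24 for the 84 members within 10-fold among controls. Of the members, 75 had a value below 0 for SFN and 66 for TSA, beside 49.7% and 50.7% of all tested genes. At an adjusted p under 0.05 (Benjamini-Hochberg) in the quasi-likelihood test of edgeR, 0 members were called for SFN (0% of tested genes) and 0 for TSA (0%). An unadjusted p under 0.05 was found for 41 members for SFN and 30 for TSA, beside 33.8% and 32.8% of tested genes. Without the replicate number as a block, 23 members were called for SFN (16.8% of tested genes) and 14 for TSA (14.9%), each of them lower than control. The likelihood ratio test called 30 (21.4%) and 24 (21.2%), and DESeq2's Wald test 41 (31.6%) and 31 (30.8%). Nothing is read from these counts, for the reason given above. Without control replicate 1 the quasi-likelihood test called 30 members for SFN and 21 for TSA, beside 1877 and 1895 of 5536 tested genes. Without TSA replicate 1 it called 2 members for SFN, beside 208 of 5523 tested genes.

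The 4 lowest fitted log2 fold changes, for SFN and for TSA alike, belonged to members in which control replicate 1 was low. For HF086_012944 the log2 fold change was -9.54 for SFN (standard error 3.32) and -11.91 for TSA (standard error 3.93). For HF086_016480, whose controls agreed, it was -6.03 (standard error 1.55) and -4.24 (standard error 1.45). For the most abundant member, HF086_012941, it was -2.17 (standard error 1.50) and -1.27 (standard error 1.38). For HF086_011481 it was 1.68 (standard error 0.56) and 1.37 (standard error 0.56).

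The difference between SFN and TSA does not set either against the control values that chose the members. The control libraries still enter the fit of all 9 libraries. Through its replicate terms they bear on the fitted difference as well as on its errors. For the 4 members abundant in control replicate 1 and SFN replicate 1 only, the median fitted difference was 6.21 with the replicate block and 9.52 without it. Without the controls edgeR's quasi-likelihood test called 0 members, with a lowest adjusted p of 0.90. It gave 7 members at an unadjusted p under 0.05, beside 239 of 5447 tested genes. The inhibitors were given at different doses, so it compares these diets and not the compounds at a matched dose. The same edgeR quasi-likelihood test called 0 members between SFN and TSA and 0 genes in all (0%), with a lowest adjusted p of 0.9998 among the members. An unadjusted p under 0.05 was found for 5 members, beside 2.33% of tested genes. That number was 8 without control replicate 1 (261 of 5536 tested genes) and 11 without SFN replicate 3 (232 of 5534). It was 15 without TSA replicate 3 (212 of 5506) and 3 without TSA replicate 1 (191 of 5523). It was 0 without SFN replicate 2 (126 of 5372) or TSA replicate 2 (81 of 5610). In each case 0 members were called. These counts do not show that the inhibitors act alike, since the errors were wide: for HF086_012941 the log2 fold change was -0.90 (standard error 1.60). The median log2 fold change of the members, SFN relative to TSA, was -0.37, with quartiles of -0.70 and -0.01, and that of all tested genes was 0.04. The distance of -0.41 between these medians was -0.39 to -0.42 under the other scalings. Of the members, 77 had a lower fitted level under SFN than under TSA, beside 71 of the next 100 genes and 46.1% of all tested genes. All 3 SFN libraries lay below all 3 TSA libraries in 8 members (4.46% of all genes) and above in 3 (5.61%). Among the next 100 genes the counts were 9 and 3, and among genes with a mean CPM over 10 the shares were 7.04% and 3.00%, so the members did not stand apart. The median was -0.19 without SFN replicate 2, -0.15 without TSA replicate 2, -0.61 without TSA replicate 3 and -0.63 without SFN replicate 3.

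Of the 5 members with a low unadjusted p, HF086_008112 alone had no overlap, with 1025, 402 and 368 under SFN and 1508, 2298 and 1116 under TSA. Its log2 fold change was -1.37 (standard error 0.44, adjusted p = 0.9998 by edgeR's quasi-likelihood test). HF086_005147 had 212, 743 and 461 under SFN and 2314, 4256 and 608 under TSA, and HF086_012115 had 335, 128 and 69.1 under SFN and 514, 967 and 173 under TSA. The ranges of both overlapped through TSA replicate 3. The other 2 were HF086_000983 and HF086_000984, in which the SFN mean rests on SFN replicate 1. Together with HF086_008083 and HF086_008077 they were the 4 members with the largest fitted difference, from 5.28 to 6.79. DESeq2's Wald test called these 4 members (0.855% of tested genes), with adjusted p from 0.000612 to 0.0182, and the likelihood ratio test called 0 (0.309%). The steady members HF086_014802 and HF086_014817 differed by 0.10 (standard error 0.30) and -0.03 (standard error 0.31).

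The 8 members with all SFN libraries below all TSA libraries included HF086_003196 and HF086_015917, described above. HF086_017979, at rank 18, had 4343, 3336 and 4898 under SFN and 7223, 9298 and 7127 under TSA, beside 10329, 5088 and 3525 in the controls. HF086_013742, at rank 82, had 4094, 2747 and 4327 under SFN and 4407, 4662 and 5832 under TSA, beside 3026, 1333 and 1521 in the controls. In the first the controls spanned both groups, and in the second control replicate 1 lay within the SFN range and the other controls below it. The 3 members with SFN above TSA were HF086_012964, HF086_012944 and HF086_002678, all at rank 7 or above and all with their treated libraries far below control replicates 2 and 3. Adjusted p was 0.9998 for each of these 11 members by edgeR's quasi-likelihood test.

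**Figure D5:**
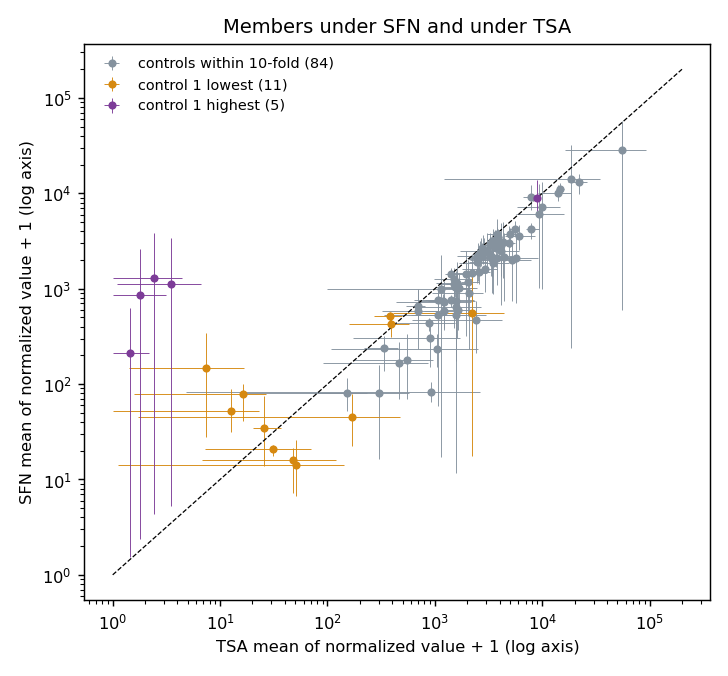
Mean normalized value plus 1 of each member under SFN (y axis, log) and TSA (x axis, log), with bars from the lowest to the highest of 3 libraries and a dashed line where both are equal. Most of the 84 grey members lie just below the line, and 4 purple members lie far above it with SFN bars spanning more than 100-fold.

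By the SFN mean, 47 of the first 100 genes were not members, and by the TSA mean 44. The most abundant of these under SFN was HF086_008482, with 661, 12788 and 1183 in SFN replicates 1 to 3, which SFN replicate 2 alone placed there, and 822, 353 and 508 in the controls. HF086_016521 was among the 3 most abundant for both inhibitors, with 3386, 2042 and 5748 under SFN, 3293, 3293 and 4499 under TSA and 3052, 116 and 279.7 in the controls. Under TSA HF086_016137 led, with 4568, 7343 and 2782, 615, 2974 and 1168 under SFN and 3225, 9.91 and 30.9 in the controls. In both genes control replicate 1 lay with the treated libraries and the other controls far below. This is the reverse of the 11 members in which control replicate 1 was low. HF086_003348, also among the 3 under TSA, differed from both. It had 3224, 2903 and 3136.5 under SFN and 4719, 2647 and 4400 under TSA. Its controls, at 1821, 429 and 556, all lay below all treated libraries. HF086_004339, also among the 3 under SFN, had 577, 9412 and 891 under SFN and 633, 276 and 379 in the controls, with SFN replicate 2 far above the rest.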

How the data were processed

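RNA-seq libraries of *S*. *exigua* fat body were analysed, 3 each for control, SFN and TSA; the *T*. *ni* tables were not used. According to the deposited files and the submitters' processing notes, the authors trimmed reads with Trimmomatic 0.39, aligned them with HISAT2 2.2.1 and deposited raw counts per gene from featureCounts. Per the study's methods, the reads were aligned to the genome of the *S*. *exigua* isolate TB_SE_WUR_2020. The authors also deposited normalized values (a signal scaled by library total and TMM factor) for 12380 of 18477 genes. Multiplied back, 100% of these values gave whole reads matching the raw counts within 0.01. No per-sample column was left unmapped.

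Counts of all 9 libraries were fitted with edgeR 4.0.16 (TMM factors, mean CPM over 10, glmQLFit and glmQLFTest), with group and replicate number as terms, the latter a reading of the study's paired triplicates that is in doubt. P-values were adjusted by the Benjamini-Hochberg method over 5497 genes, with 0.05 as threshold. The standard errors printed were derived from the quasi-likelihood test, as the absolute fitted log2 fold change divided by the square root of the F statistic. DESeq2 1.42.0 and other scalings, filters and sample sets were alternatives. Shares were compared with exact permutation tests (scipy 1.17.1). On simulated data the fit recovered most 64-fold differences between SFN and TSA, with some false calls, but not those of 4-fold. The simulated counts had no replicate effects and no general difference between control and treated libraries, so the recovery need not hold for these data. The 0 calls between SFN and TSA do not exclude differences of 4-fold. The p-values measure the spread between pools.

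The members, the lists and the tests were chosen with earlier results of these data known. Genes named were the 15 most abundant members, those with the largest ratios of treated to control mean among members whose 6 treated libraries lay on 1 side of the controls (fewer are printed than the 6 per direction set, since identifiers have no names), the 4 with the largest SFN to TSA difference, the 3 with the largest spread among controls, those at ranks 99 to 102, and the 3 most abundant genes outside the members per inhibitor. All other genes named were chosen after their values were seen. These are HF086_012937, HF086_010878, HF086_016531, HF086_016481, HF086_016482, HF086_016484, HF086_017971, HF086_014802, HF086_014817, HF086_017979, HF086_013742, HF086_008112, HF086_005147 and HF086_012115.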

Additional observations from a re-analysis of the deposited data

How the results depend on the processing

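The share of counts was lower under SFN and TSA than in controls, and the members' medians were below 0, under every alternative run except the TSA median with library size only (0.02). The control share was 43.7% without the most abundant member and 40.2% with only the 84 members within 10-fold among controls, the latter an alternative chosen after seeing the data. Leaving out 1 library at a time gave control shares of 49.9% to 55.2%, SFN shares of 27.4% to 34.1% and TSA shares of 32.4% to 38.0%. The counts of called members depended most on the processing. Calls among all tested genes are in brackets. For SFN against control the main count of 0 became 11 with library size only (997 of 5497) and 8 with mean CPM over 1 (947 of 10338). It became 12 with no filter (1236 of 16854) and 7 over the genes of the normalized table (973 of 12380). The likelihood ratio test gave 30 (1177 of 5497), DESeq2 41 (1735 of 5497) and the fit with only the treatments compared 6 (268 of 5690). For TSA against control the main count of 0 became 4 with mean CPM over 1 (1002 of 10338) and 5 with no filter (1225 of 16854). It became 2 over the genes of the normalized table (962 of 12380), 24 with the likelihood ratio test (1163 of 5497) and 31 with DESeq2 (1693 of 5497). Between SFN and TSA DESeq2 called 4 (47 of 5497). Leaving out 1 library gave 0 to 30 calls for SFN, 0 to 21 for TSA and 0 between SFN and TSA. Leaving out control replicate 1 gave 30 for SFN (1877 of 5536) and 21 for TSA (1895 of 5536). Leaving out TSA replicate 1 gave 2 for SFN (208 of 5523). The cause was not tested.

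Same-numbered libraries did not deviate together (correlations of -0.19 to 0.47, 1 of 9 over 0.1), so the data do not show that the numbers pair the samples. The main fit nevertheless keeps the replicate number as a block, and its 0 calls for SFN and for TSA against control depend on that choice. With no replicate block, 23 members were called for SFN (923 of 5497 tested genes), 14 for TSA (819 of 5497) and 0 between them (0 of 5497). Members with all SFN libraries above all controls numbered 23 with library size only and 3 to 17 with 1 library left out (17 without control replicate 1, 5 without SFN replicate 1 or SFN replicate 2). Members with all TSA libraries above all controls numbered 32 with library size only, and those below all controls 26 to 47 with 1 library left out (47 without TSA replicate 2). The matching shares of all genes were not counted for these settings. With TMM the median of all tested genes was 0.01 (log2) for SFN, -0.02 for TSA and 0.04 between them. With library size only it was 0.73, 0.52 and 0.21. Relative to that median the members lay at -0.96, -0.50 and -0.42, and at -0.91, -0.48 and -0.41 with TMM. At the depth of SFN replicate 2 the shares of the list were still exact to 3 digits, so that the 3 pools per group limit the comparisons.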
